A study of Mus musculus with 4 samples.

Results

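The 7 genes described here encode proteins of the endothelial adherens junction. They are Cdh5, Pecam1, Ctnna1, Ctnnd1, Jup, Ptprb and Vcl, chosen by name from 21951 protein-coding genes in the mouse annotation. Every one was found in the annotation, so the values cover 7 of 7 members. RNA polymerase II (Pol II), the enzyme that transcribes protein-coding genes, was mapped along them by chromatin immunoprecipitation sequencing of flow-sorted brain endothelial cells (ECs). The groups were old WT Cre mice aged 20 to 23 mo and young EC-K4KO mice aged 4 to 6 mo, with 2 libraries in each. EC-K4KO mice carry CDH5-CreERT2, a tamoxifen-inducible Cre recombinase under control of Cdh5 regulatory sequence, together with a floxed Klf4 gene, and Cre was induced at 8 wk. WT Cre mice carry the same Cre, so a transgene built on a regulatory sequence of one of the genes described was present in both groups. The libraries are called old 1 and old 2 (old WT Cre replicates) and young 1 and young 2 (young EC-K4KO replicates). Since the groups differ in genotype as well as in age, the parts of the 2 in any difference cannot be told apart. The methods of the study call the replicates biological, but whether a library came from 1 mouse or from pooled mice is not given in the sources used here.

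Adherens junctions hold neighbouring endothelial cells together and anchor the contact to the actin cytoskeleton. VE-cadherin, the product of Cdh5, binds VE-cadherin on the next cell. Its cytoplasmic tail carries p120-catenin (Ctnnd1), which keeps the cadherin at the surface, and β-catenin or plakoglobin (Jup), which link it to α-catenin (Ctnna1) and so to actin. Vinculin (Vcl) joins α-catenin when the junction is under tension. VE-PTP (Ptprb) is a receptor phosphatase that acts on VE-cadherin, and PECAM-1 (Pecam1, also CD31) is an adhesion molecule of the same cell border that is widely used as an endothelial marker. In the brain these contacts are part of the vessel wall that forms the blood–brain barrier.

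A peak is a stretch where fragments piled up above the local background of the same library, as called by the authors at a q-value of at most 0.01. The pileup of a peak is the number of fragments over its summit, and it is given here per 1000000 fragments of its library (FPM), with no other normalization between libraries. The libraries held 65734178 and 27455452 fragments in old 1 and old 2, and 35227929 and 22705175 in young 1 and young 2. They held 78851, 39674, 35638 and 235591 peaks in the same order, so young 2 had the most peaks from the fewest fragments. A peak lay within 1500 bp of a transcription start site (TSS) at 25.6% and 24.5% of protein-coding genes in the old libraries and at 10.6% and 67.5% in the young libraries. Every count of members below is to be read against these shares. Of 16 other endothelial marker genes, 4, 5, 0 and 9 had a TSS peak in the 4 libraries, which is 25%, 31.2%, 0% and 56.2% of the list. The same counts were 4, 1, 2 and 7 of 10 mural cell markers, 3, 1, 0 and 7 of 10 microglia and leukocyte markers, 3, 2, 1 and 4 of 8 astrocyte markers, 1, 1, 1 and 7 of 8 oligodendrocyte markers and 1, 2, 1 and 6 of 9 neuron markers. Peak calls at marker promoters thus did not set endothelial genes apart from genes of other brain cells, and the labelled cell type could not be checked from them.

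Pol II peaks at the TSS of the junction genes were called in old 1 at Cdh5, Jup and Vcl, and in old 2 at the same 3 genes and at Ctnna1. Young 1 had no TSS peak at any of the 7 genes. Young 2 had one at 6 of 7, all but Pecam1. The mean number of members with a TSS peak was 3.5 ± 0.707 (SD, n = 2) in old WT Cre and 3 ± 4.24 (SD, n = 2) in young EC-K4KO. The difference of -0.5 members was far within the spread of the young libraries (exact permutation test, two-sided, p = 1.0, with a smallest possible p of 0.33 for 2 against 2). Both old libraries had the peak at 3 of 7 members, against 10.1% of all genes, and both young libraries at 0 of 7, against 9.14%. All 3 also had a peak in young 2. With 7 genes chosen by name, these shares describe the members and were not tested. The 3 in both old libraries became 0 at q of at most 1e-05, at a fold enrichment of at least 4 and with lists of equal length, and 1 with a TSS window of 500 bp. The difference between the groups was -3.5 members without young 2 and 2.5 without young 1. No member had a TSS peak in all 4 libraries, so no member's TSS pileup could be compared between the groups.

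**Figure D1:**
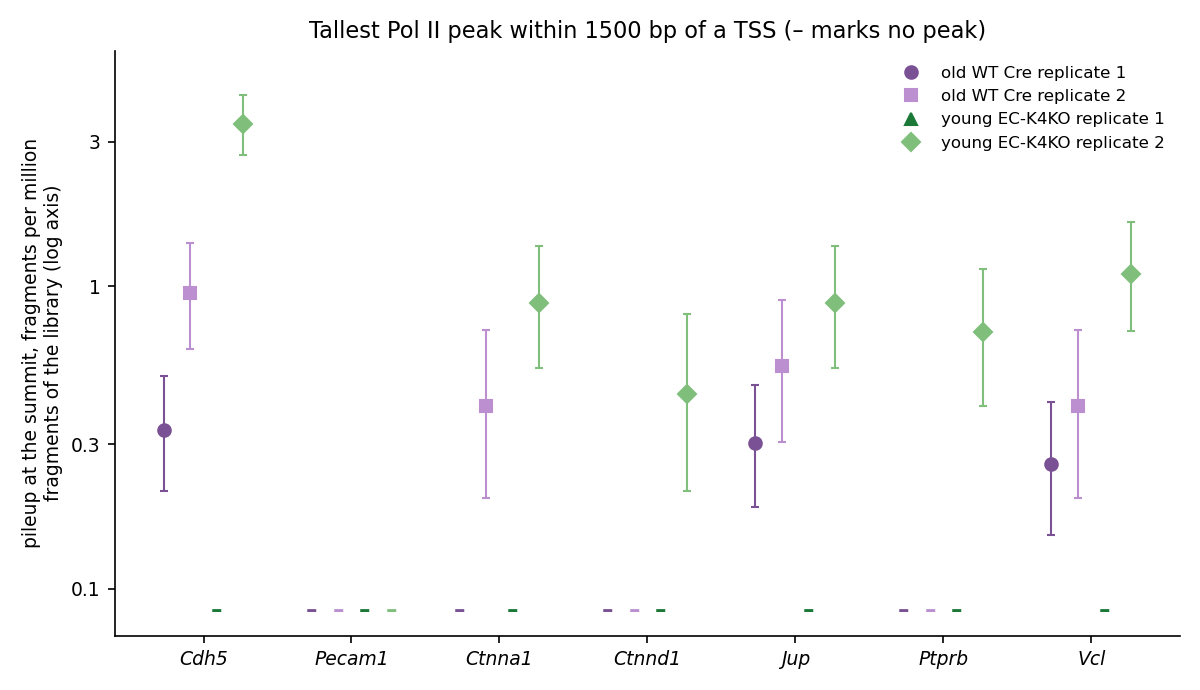
Tallest Pol II peak within 1500 bp of a TSS of each gene, as the pileup at the summit in FPM, on a log axis. Points are single libraries, bars are 95% Poisson intervals of the fragment count, and a dash marks a gene without such a peak. Young 1 has no point for any gene, and Cdh5 in young 2 stands highest at 3.44.

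At Cdh5 (chr8:104101625-104144511, plus strand, mm10), the cadherin of the junction, the tallest TSS peak held 0.335 FPM in old 1, 0.947 in old 2 and 3.44 in young 2. No peak was called within 1500 bp or 3000 bp in young 1. The 95% Poisson intervals, which cover counting error only, were 0.21 to 0.507, 0.619 to 1.39 and 2.72 to 4.29 and did not overlap. Among genes with a TSS peak in the same library, the Cdh5 pileup was at the percentile 59.4, 98.9 and 99.8. The fold enrichment of the same peaks over their local background was 3.32, 3.71 and 2.74, lowest in young 2, and at a fold enrichment of at least 4 no library kept a Cdh5 TSS peak. None of these peaks lay on the start itself. The summits were 849, 1536 and 1528 bp upstream, inside an intron of Gm29682, a gene annotated antisense to Cdh5. With a window of 500 bp, no library had a Cdh5 TSS peak, and with the summit itself required inside 1500 bp, 1 library did and the members with a peak in both old libraries were Jup and Vcl. Peaks from old 2 and young 2 overlapped, with summits 8 bp apart, whereas the peak of old 1 overlapped neither.

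At Jup (chr11:100368958-100397763, minus strand), which encodes plakoglobin, the tallest TSS peak held 0.304, 0.546 and 0.881 FPM in old 1 and old 2 and young 2. Young 1 had none. The summits lay 774, 393 and 758 bp downstream of the TSS in the first intron, and the 3 libraries' peaks joined into 1 region of 884 bp. Its pileups were ordinary for each library, at the percentile 43.6, 72.7 and 58 among genes with a TSS peak. The Jup peak was left in 1 library at a fold enrichment of at least 4 and with lists of equal length.

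At Vcl (chr14:20929398-21033676, plus strand), which encodes vinculin, the tallest TSS peak held 0.259 and 0.401 FPM in the old libraries and 1.10 in young 2. Again young 1 had none. With a window of 500 bp, Vcl was the only one of the 7 members with a TSS peak in both old libraries. A peak with its summit 172, 320 or 154 bp downstream of the TSS was shared by these 3 libraries. A peak upstream of the TSS was shared by old 2, with its summit 293 bp upstream, and young 2, with its summit 366 bp upstream. At q of at most 1e-05, 1 library kept a Vcl TSS peak.

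The remaining members had TSS peaks in 2 libraries or fewer. Ctnna1, encoding α-catenin, had one in old 2, with 0.401 FPM, and one in young 2, with 0.881. The Ctnna1 summits lay 771 and 321 bp downstream of the TSS, and the peaks did not overlap. Ptprb, encoding VE-PTP, had TSS peaks in young 2 alone, the taller with 0.705 FPM, 273 bp downstream of the second of its 2 annotated starts. Ctnnd1, encoding p120-catenin, had one in young 2 alone, with 0.440 FPM, which was a pileup of 10 fragments. Pecam1 had no peak within 1500 bp of any of its 5 annotated starts in any library.

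**Figure D2:**
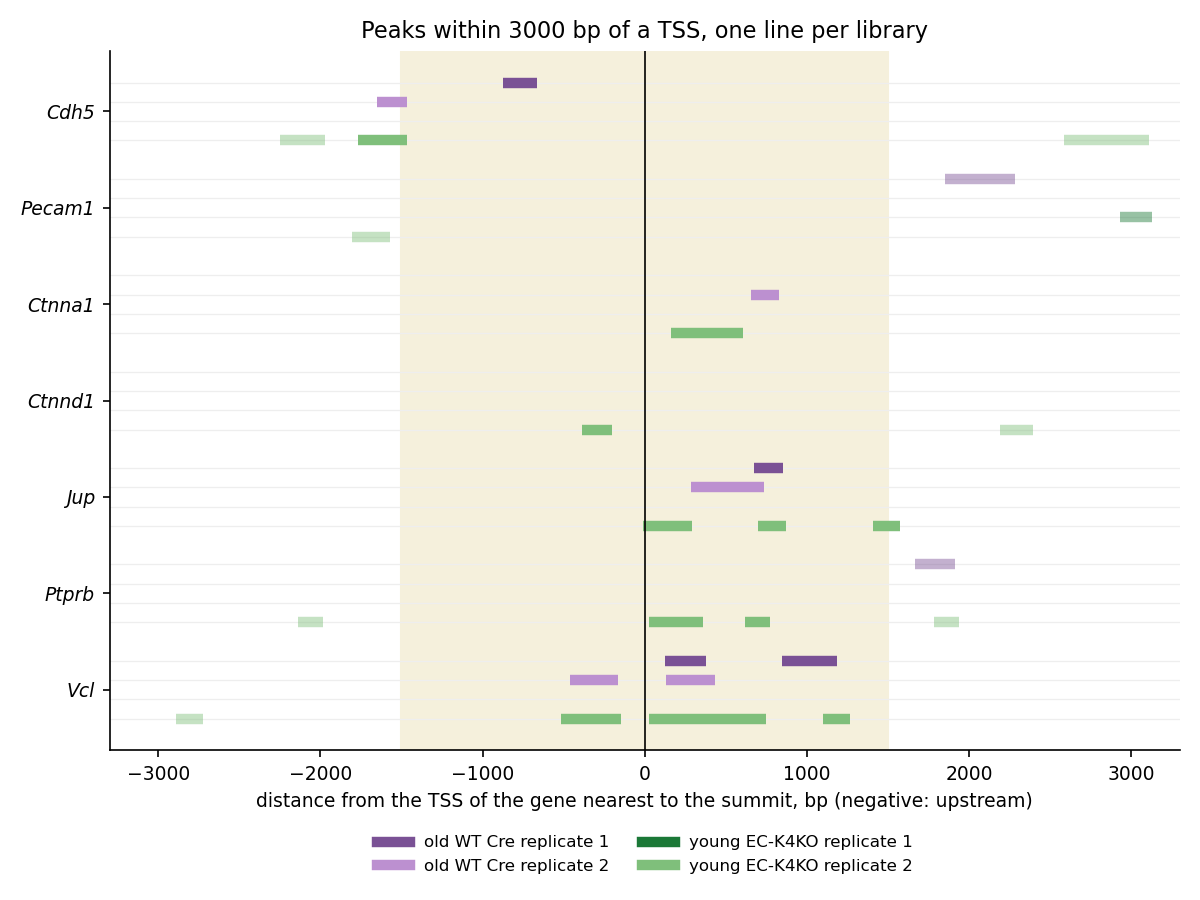
Peaks within 3000 bp of a TSS of each gene, drawn from start to end against the distance in bp from the TSS nearest to the summit, with negative values upstream. Each gene has 4 lines, one per library in the order of the legend, the shaded band is the 1500 bp window, and faint bars lie outside it. The Vcl bars lie on both sides of the start, the Jup summits downstream of it, and the Cdh5 bars inside the window upstream of it.

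Within 3000 bp, where 33.8%, 28.4%, 14.1% and 77.0% of all genes had a peak in the 4 libraries, the members with a peak numbered 5, 4, 1 and 7. Pecam1 gained peaks in 3 libraries by this change, but at 3 different places. In old 1 the summit was 2254 bp downstream of a start, and in young 1 it was 3024 bp downstream. In young 2 it was 1750 bp upstream, in an intron of the neighbouring gene Milr1 and 1110 bp from the Milr1 TSS.

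The TSS count of Ctnnd1 depended on the annotation. GENCODE M21 basic gives Ctnnd1 6 starts, the most upstream at chr2:84650765, and 1 curated RefSeq transcript starts 8212 bp upstream of the nearest of them, at chr2:84658977. That start lies head to head with Btbd18, whose curated RefSeq start is 102 bp away on the other strand. Both old libraries had a peak here, with 0.319 and 0.510 FPM and summits 216 and 169 bp upstream of the RefSeq Ctnnd1 start. These peaks overlapped, with summits 47 bp apart, on the Btbd18 side of the pair of starts. The peak of young 2 in this window, with 0.573 FPM, lay 737 bp downstream of the Ctnnd1 start, and young 1 had none. The immunoprecipitation does not mark strand, so Pol II on Ctnnd1 and on Btbd18 cannot be told apart here. Counted from curated RefSeq starts, which was chosen after the peaks were seen, members with a TSS peak numbered 4, 5, 0 and 6, and Cdh5, Ctnnd1, Jup and Vcl had one in both old libraries. At these starts 24.9%, 24.1%, 10.3% and 67.3% of all genes had a TSS peak.

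The sequences at the starts of Vcl and Ctnnd1 and under peaks shared by several libraries at Jup and Cdh5 are given here. In the first group, capitals mark the GC box (GGGCGG or its reverse complement) or the ETS core (CCGGAA or its reverse complement), searched on both strands. Of the 250 bases upstream of 32851 RefSeq starts, 32.7% held a GC box and 12% an ETS core. RefSeq promoter entries (GRCm38.p6) were matched for Ctnnd1, Jup and Vcl, which is 3 of 7 members. The Vcl promoter, chr14:20929148-20929397 on the plus strand, held 4 GC boxes, 2 of which overlap, and had a GC content of 67.2%. Peaks of old 2 and young 2 covered its upstream end, to 20929235 and 20929252, and these GC boxes lie beyond them, where no peak was called. The 298 bases under both peaks, chr14:20928938-20929235, held 3 other GC boxes, upstream of the promoter sequence shown. The Jup stretch, chr11:100397015-100397051 on the minus strand, is the 37 bases of the first intron that lay under a peak of each of old 1, old 2 and young 2. The Ctnnd1 stretch, chr2:84658978-84659071 on the minus strand, is the 94 bases between the RefSeq start of Ctnnd1 and the first exon of a predicted RefSeq transcript of Btbd18, which begins slightly before the curated start, and held 1 ETS core. Only the peak of old 2 covered it, and that of old 1 began at 84659086, inside Btbd18. A match of letters is a description and not a binding site.
Vcl promoter: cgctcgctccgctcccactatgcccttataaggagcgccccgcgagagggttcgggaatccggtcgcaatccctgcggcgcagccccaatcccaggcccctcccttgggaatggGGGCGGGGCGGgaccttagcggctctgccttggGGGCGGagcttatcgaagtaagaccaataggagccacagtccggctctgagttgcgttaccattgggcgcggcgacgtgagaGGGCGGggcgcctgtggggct
Jup first intron: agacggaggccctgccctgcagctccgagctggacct
Ctnnd1 upstream start: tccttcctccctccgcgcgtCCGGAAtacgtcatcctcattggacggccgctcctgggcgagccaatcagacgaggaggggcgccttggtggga

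For Cdh5 the capitals mark bases that the reference genome masks as repeats. The upstream stretch, chr8:104085316-104085392 on the plus strand, is the 77 bases that lay under a peak of all 4 libraries, 16.3 kb upstream of the TSS. Repeat masking covers 33.8% of it. The stretch near the TSS, chr8:104099976-104100157 on the plus strand, is the 182 bases under the peaks of both old 2 and young 2, and 20.3% of it is masked.
Cdh5 upstream region: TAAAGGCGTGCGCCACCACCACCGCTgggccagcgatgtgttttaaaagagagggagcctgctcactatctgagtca
Cdh5 near the TSS: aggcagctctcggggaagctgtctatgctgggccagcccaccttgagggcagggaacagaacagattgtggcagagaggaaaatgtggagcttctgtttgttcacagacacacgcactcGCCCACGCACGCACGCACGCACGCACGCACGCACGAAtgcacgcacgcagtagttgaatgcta

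Cdh5 differed from the other members in its local background. The peak caller compares each pileup with a background, which is the larger of the genome-wide mean and the mean of the 10 kb around the peak. The background was recovered for every peak from its pileup and fold enrichment, and is given here as a multiple of the genome-wide mean of the library. In Cdh5 and the 50 kb on either side, the median background of the peaks was 1.27 and 2.24 times the genome-wide mean in the old libraries and 3.75 and 9.25 times in the young libraries. Ranked from the highest, this placed Cdh5 at 2611 of 17491 genes in old 1, 67 of 11605 in old 2, 57 of 6972 in young 1 and 36 of 21542 in young 2. Only genes with at least 3 peaks were ranked, and the median over them was 1, 1.01, 1.11 and 1.42 times. In old 2, young 1 and young 2 the value of Cdh5 was over 1.5 times that of any other member. Jup, next in order, had 1.19, 1.46, 1.84 and 2.66 times, the third value from a single peak. Vcl had 1, 1, 1 and 1.15 times, but in young 2 the Vcl peaks within 1500 bp of the TSS stood at 1.73, 1.74 and 1.75 times. With 50 kb on either side, Jup had 50.5% GC, Cdh5 47%, Pecam1 46.6%, Ptprb 43.4%, Ctnnd1 43.1%, Ctnna1 43% and Vcl 41.1%, against a median of 44.3% over all genes, and the part of GC content in these values was not tested.

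**Figure D3:**
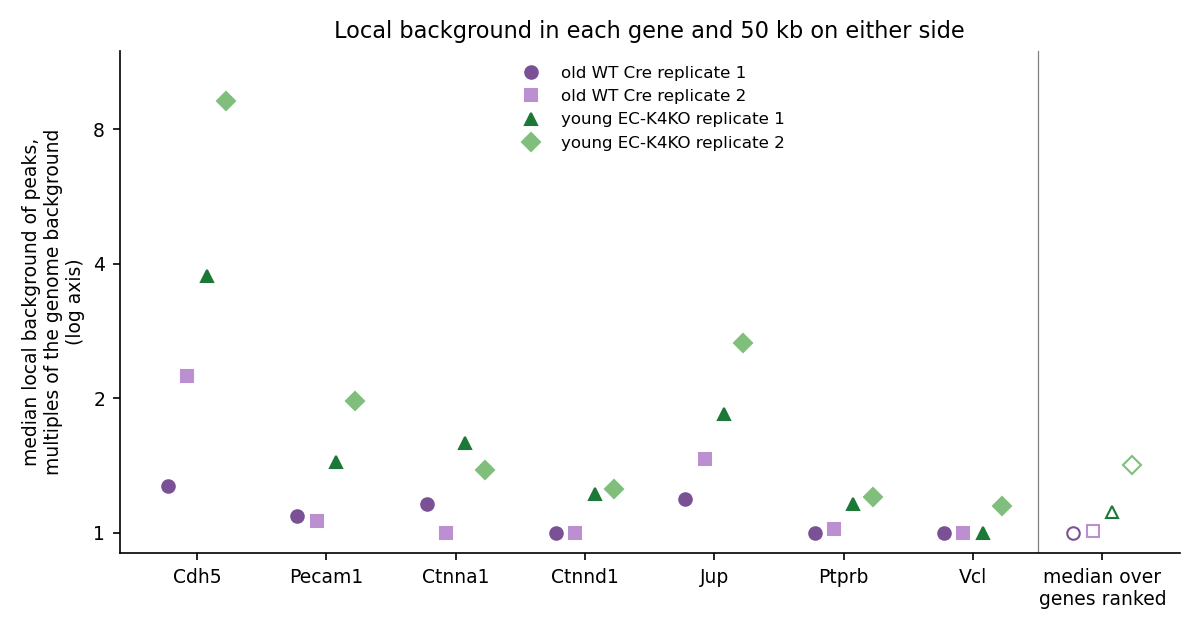
Median local background of the peaks in each gene and 50 kb on either side, as multiples of the genome-wide background of the library, on a log axis. Each point is 1 library, and the open points at the right are the medians over all ranked genes. Cdh5 is the highest member in each library, at 1.27, 2.24, 3.75 and 9.25 times.

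The raised background at Cdh5 extended beyond the gene on both sides. In young 2 it ran from chr8:104037108 to 104202025, a length of 164.9 kb from 64.5 kb upstream to 100.4 kb downstream of the Cdh5 TSS. A run was defined, after the values were seen, as peaks at 4 or more times the genome-wide background with gaps of at most 20 kb. Of 36 such runs of at least 50 kb in young 2, the Cdh5 run was the longest by this definition, and the next was 124.2 kb. The longest run elsewhere in old 1, old 2 and young 1 was 112.3 kb. At least 6 times the background shortened the Cdh5 run to 108.6 kb, and the other runs were not ranked again at other limits. The level varied along the run, from 20.5 times at a peak 39.9 kb upstream of the TSS to 8.39 times 22.6 kb upstream and 21.6 times 2.0 kb upstream. It dipped to 1.76 times 51.8 kb downstream, lower than the highest peak outside the run, and returned to 9.97 times 82.4 kb downstream. Inside it are Cdh5, Gm29682, the pseudogene Gm8748, Gm45663, Gm10631 and 64.9% of Bean1, so it neither began nor ended with the Cdh5 gene.

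No run at Cdh5 was found in old 1, old 2 or young 1 by the same definition. The definition needs closely spaced peaks, and these libraries held 13, 9 and 8 peaks in the interval of the young 2 run, against 70 in young 2. The lack of a run therefore does not by itself show a lower background. The interval set in young 2 was then compared in these libraries. In young 1, 8 of 8 peaks inside were at 1.5 or more times the genome-wide background, with a median of 3.75 times, against 2 of 9 peaks and a median of 1.26 times in the 200 kb on either side. In old 2, the counts were 8 of 9 inside and 0 of 6 outside, with medians of 2.24 and 1.00 times. In old 1, they were 1 of 13 inside and 0 of 24 outside, with medians of 1.27 and 1.00 times. In young 2, where the interval was chosen for its high values, they were 70 of 70 and 32 of 61, with medians of 9.80 and 1.51 times.

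In young 2 a fall beyond both edges follows from how the run was defined, and its values are given as a description. Entering from upstream, the background rose from 2.40 times at 75.9 kb from the TSS to 10.3 times at 64.5 kb. Leaving downstream, it fell from 4.95 times at 100.4 kb to 1.34 times at 108.8 kb. In young 1, the first peak inside was 64.0 kb upstream, at 4.74 times, and the last was 98.4 kb downstream, at 3.13 times. The nearest peaks outside were 151.3 kb upstream, at 1.26 times, and 109.6 kb downstream, at 1.57 times. In old 1 the peaks next to either edge lay between 1.00 and 1.29 times. In old 2 neither edge could be placed, since its peaks inside ran from 25.7 kb upstream to 90.9 kb downstream and the nearest outside were 127.8 kb upstream and 208.2 kb downstream.

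**Figure D4:**
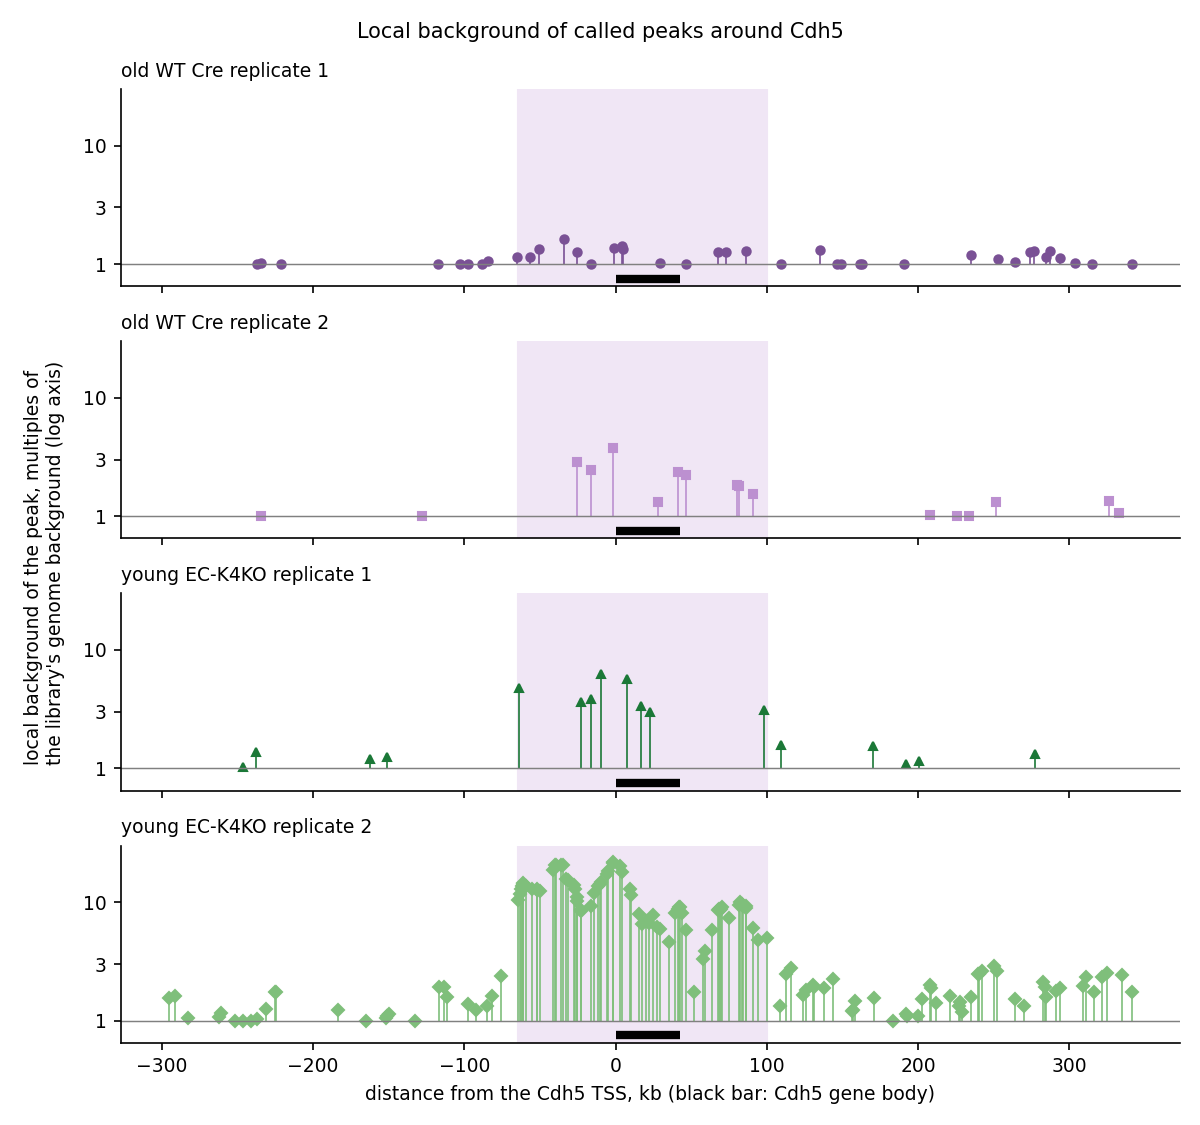
Local background of every called peak around Cdh5, against the distance from the Cdh5 TSS in kb, as multiples of the genome-wide background of the library on a log axis. There is 1 panel per library, the shaded band is the run defined in young 2, and the black bar is the Cdh5 gene body. Values inside the band reach 1.64, 3.73, 6.21 and 21.6 times in the 4 panels from top to bottom. The median is lower outside it in each library, but the ranges overlap in old 1, old 2 and young 2.

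The order of the libraries inside the interval put both young libraries above both old libraries, by the medians above. The interval was chosen in one of these libraries for its high value, so no test is given. Other properties of the libraries moved with this order. The share of all peaks called at the genome-wide background was 66.5%, 66.1%, 49.8% and 37.95% in the 4 libraries, so the young libraries had raised local background at more of their peaks throughout the genome. All 4 libraries come from mice with CDH5-CreERT2, and the extent and copy number of the Cdh5 sequence in the transgene are not given in the sources used here. The part of the transgene, of library quality and of the age and genotype of the mice in the raised interval was not tested. No control library from the same cells was used by the authors in calling peaks.

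Where the local background was raised, only taller pileups were called. Among peaks of the whole library whose background was within 20% of that at the peak nearest to the Cdh5 TSS, the smallest called pileup was 14 and 18 fragments in the old libraries and 27 and 43 in the young libraries. The smallest pileups in the whole lists were 13, 8, 9 and 7 fragments. For young 1, the nearest peak lay 7.9 kb downstream of the TSS, and the smallest pileup called at its background was 0.766 FPM. The Cdh5 TSS peak of old 1 held 0.335 FPM, and those of old 2 and young 2 held 0.947 and 3.44. The background at the Cdh5 TSS itself was not measured in young 1, which had no TSS peak at any member. The part of the background in the missing Cdh5 peak was not tested. For peaks inside the interval, the median fold enrichment was 3.77, 4.48, 3.51 and 3.39, against 3.94, 4.85, 4.16 and 4.79 over all peaks of each library.

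Peaks along the gene bodies were counted next. The 7 gene bodies held 23 and 8 peak summits in the old libraries and 10 and 74 in the young libraries, of which 18, 7, 9 and 58 lay in introns. At least 1 summit was found in 7, 6, 5 and 7 of the members, against 54.4%, 43.5%, 30.4% and 81.5% of all genes. Per length and relative to all protein-coding gene bodies of the same library, the density was 1.12 and 0.757 in old WT Cre, a mean of 0.939 ± 0.258 (SD, n = 2), and 1.33 and 1.21 in young EC-K4KO, a mean of 1.27 ± 0.0818 (SD, n = 2). The groups did not overlap, but the difference of 0.331 was not distinguishable at this number of libraries (exact permutation test, two-sided, p = 0.33, which is the smallest possible). It turned to -0.0835 at q of at most 1e-05 and was 0.0828 at a fold enrichment of at least 4, and 0.148 without old 2 and 0.513 without old 1. Without Cdh5, an exception chosen after its values were seen, the densities were 1.05, 0.613, 1.00 and 1.03 and the groups overlapped (exact permutation test, p = 1.0). The other 6 gene bodies together thus held peaks at about the density of all gene bodies in 3 libraries and fewer in old 2.

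Cdh5 alone had 3, 2, 3 and 16 body summits, which is 1.96, 2.53, 5.32 and 3.50 times the density over all gene bodies. Its tallest body peak in young 2 held 4.67 FPM, a pileup of 106 fragments, with its summit 4340 bp downstream of the TSS. Old 1 had a peak at the same place, with 0.396 FPM and its summit 4281 bp downstream. The centre of this shared region lies 62 bp from the start of Gm29682, which runs in the opposite direction, so Pol II on either gene cannot be told apart there. Ptprb had 3, 1, 3 and 20 body summits, which is 0.735, 0.475, 2.00 and 1.65 times the density over all gene bodies. Pecam1 had 6, 1, 1 and 13, which is 1.74, 0.562, 0.789 and 1.27 times. These ratios rest on few summits in most libraries and were not tested. Ctnna1, at 135.9 kb the longest member, had 4, 2, 0 and 9, which is 0.823, 0.797, 0 and 0.621 times the density over all gene bodies. Ctnnd1 had 1, 0, 1 and 3.

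In the 50 kb on either side of the members, the density of summits relative to the same flanks of all genes was 1.30 and 1.73 in old WT Cre, a mean of 1.52 ± 0.305 (SD, n = 2), and 1.43 and 1.57 in young EC-K4KO, a mean of 1.497 ± 0.0960 (SD, n = 2). The groups overlapped (difference of -0.0187, p = 1.0 in the two-sided exact permutation test). It was -0.321 at a fold enrichment of at least 4 and 0.107 with lists of equal length, and 0.197 without old 2, -0.234 without old 1, 0.0492 without young 1 and -0.0867 without young 2. All 4 values were above 1, and without Cdh5 they were 1.17, 1.43, 1.33 and 1.21.

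**Figure D5:**
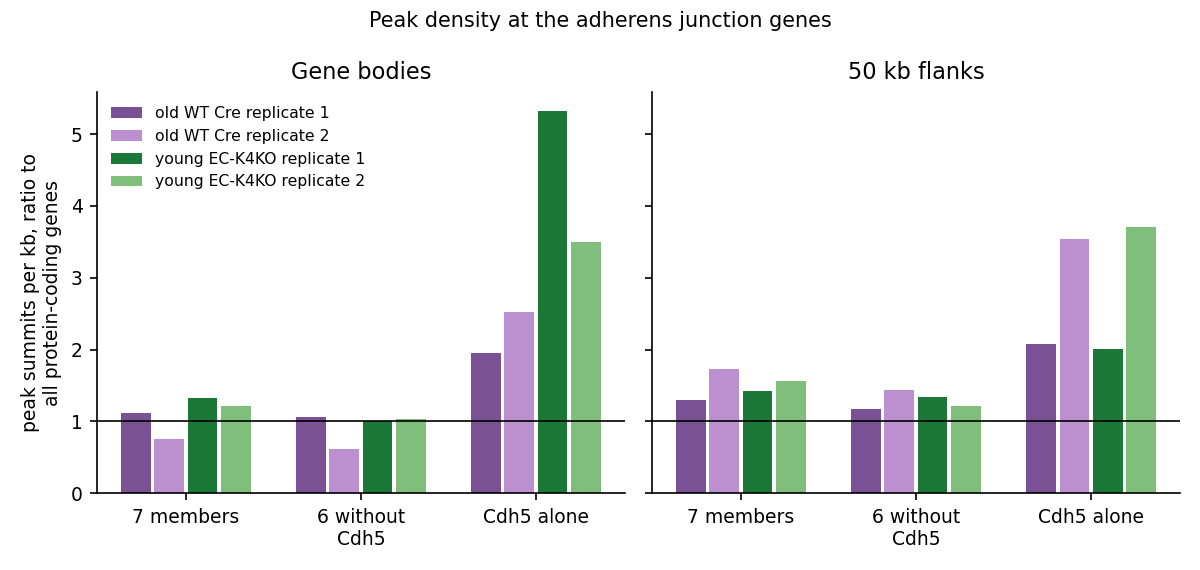
Peak summits per length in gene bodies and in the 50 kb flanks, as a ratio to all protein-coding genes of the same library, for the 7 members, for 6 members without Cdh5 and for Cdh5 alone. Each bar is 1 library, and the line marks a ratio of 1. Cdh5 gene body bars stand at 1.96, 2.53, 5.32 and 3.50, while the bars without Cdh5 lie between 0.613 and 1.05 in gene bodies.

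Within the gene bodies and 50 kb flanks of the members, overlapping peaks of the 4 libraries joined into 261 regions. Of these, 39 were found in 2 or more libraries, 10 in 3 or more and 2 in all 4. Cdh5 had 13 of the 39, Vcl 7, Pecam1 6, Ptprb 5, Jup 4, Ctnnd1 3 and Ctnna1 1. Young 2, with the longest list, had a part in 34 of the 39, and young 1 in 9. The centre lay within 1500 bp of a TSS of the member in 4 regions, within 1500 bp of a TSS of another gene alone in 11, and farther from every TSS in 24.

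The first region of all 4 libraries lay 16.3 kb upstream of Cdh5, between genes, with its sequence given above. It held 0.243 and 0.801 FPM in the old libraries and 1.05 and 2.51 in the young libraries. The summits spanned 289 bp, with that of young 2 apart from the other 3. Both young values were above both old values, but the region lies inside the interval of raised background, and its fold enrichment over the local background was 3.19, 4.48, 4.08 and 4.44. On that scale the groups overlapped.

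The second region of all 4 libraries lay near Pecam1, 28.9 kb upstream, and its centre was 22 bp from the TSS of Polg2, which encodes a subunit of the mitochondrial DNA polymerase. It held 0.319, 0.437, 0.341 and 0.617 FPM, and the groups overlapped. A region near the TSS of Ddx5, an RNA helicase gene next to it, was shared by 3 libraries, with 0.426, 1.32 and 0.341 FPM in old 1, young 2 and young 1. The flank of Pecam1 thus held promoter peaks of its neighbours, while its own starts held none within 1500 bp. Within Pecam1, 1 region was shared by both old libraries and young 2, with 0.472, 0.583 and 0.793 FPM. It lay in an intron of the longest annotated transcripts, 8.4 kb upstream of the nearest start, and its 3 summits fell within 48 bp.

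At Ptprb, 3 regions were found in both old libraries and in neither young library. They lay 35.5 kb, 13.0 kb and 11.8 kb upstream of the nearest Ptprb start, the first pair in introns of the neighbouring phosphatase gene Ptprr and the last in an intron of Ptprb. The summits of the last were 12 bp apart, with 0.426 and 0.583 FPM. One Ptprb region, 73.5 kb downstream in an intron, was found in both young libraries and in neither old library, with 0.341 and 0.352 FPM and summits 11 bp apart. These were pileups of 12 and 8 fragments, close to the smallest called in those libraries. At Vcl, a region 97.9 kb downstream in an intron was shared by old 1 and both young libraries, with 0.335, 0.341 and 0.617 FPM and 3 summits within 28 bp. Of all 39 shared regions, 12 included both old libraries and 9 both young libraries. Those in both old and neither young numbered 5, and those in both young and neither old 4. Over the whole genome, 10.7% and 12.8% of 42477 regions of 2 or more libraries had these patterns, so the counts at the members are near the background.

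Other genes of the adherens junction were read from a list of 48. Of these, 24, 17, 6 and 44 had a TSS peak in the 4 libraries, which is 50%, 35.4%, 12.5% and 91.7%. Both old libraries had the peak at 8 of them, or 16.7% against 10.1% of all genes, and both young libraries at 6, or 12.5% against 9.14%. Ctnnal1, an α-catenin relative, and Nectin3, a cell adhesion molecule of the junction, had one in all 4 libraries. Ctnnal1 held 0.365 and 0.510 FPM in the old libraries and 0.256 and 0.661 in the young. Nectin3 held 0.487 and 0.510 in the old and 0.284 and 1.28 in the young. In both genes the young libraries enclosed the old ones, so the groups overlapped. Rap1b, a small GTPase that strengthens endothelial contacts, had a TSS peak in both young libraries, with 0.341 and 0.749 FPM, and in neither old library. This is 1 of 48, against 3.12% of all genes. The pattern of Cdh5, Jup and Vcl, a TSS peak in both old libraries and young 2 and none in young 1, was seen at 6 of 48 genes, or 12.5%, against 7.0% of all genes. They were the β-catenin gene Ctnnb1, the N-cadherin gene Cdh2, the phosphatase genes Ptprm, Ptprj and Ptpn1, and the talin gene Tln1. In these genes old 1 held 0.259 to 0.411 FPM, old 2 0.328 to 0.510 and young 2 0.661 to 1.76. These 6 genes are named after their values were seen.

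Among the marker genes, Abcb1a, which encodes the efflux transporter P-glycoprotein of the blood–brain barrier, had a TSS peak in both old libraries, with 0.213 and 0.656 FPM, and in neither young EC-K4KO library. The astrocyte marker Fgfr3 had the same pattern, with 0.335 and 0.546. Olig2, an oligodendrocyte lineage factor, had TSS peaks in both young libraries, with 0.483 and 1.32 FPM, and in neither old library. In all, 1 of 16 endothelial, 1 of 8 astrocyte and 1 of 8 oligodendrocyte markers had a TSS peak in both libraries of 1 group and in neither of the other, and 0 of 10 mural cell, 0 of 10 microglia and leukocyte and 0 of 9 neuron markers did. Over all genes, the pattern was seen at 0.784% for the old and 3.12% for the young libraries. The part of other cells in the sorted samples was not tested.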

How the data were processed

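Pol II ChIP-seq peak lists of 4 libraries were used. According to the methods of the study, 200000 sorted ECs were fixed and digested with micrococcal nuclease, reads were trimmed, aligned to mm10 with Bowtie2 and freed of duplicates, and peaks were called with MACS2. The file headers give MACS2 2.2.7.1, which is not the version named in the methods, with paired fragments and no control. The tables deposited by the authors give, beside the coordinates of a peak, the coverage at its summit (the pileup, a signal counted in fragments), the ratio of this to the local background (the fold enrichment), and the p-value and q-value on a −log10 scale. The deposited narrow peak score repeats these values and was not used. None of them was normalized between libraries by the authors.

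The tools were Python 3.11.15, scipy 1.17.1, pandas 2.3.3 and numpy 2.4.6 for the values, and pysam 0.24.0 and samtools 1.23.1 for the sequences. A TSS peak overlaps the 1500 bp on either side of any GENCODE M21 basic TSS of the gene, and peaks in bodies and 50 kb flanks were counted by summit. The fold enrichment is the pileup plus 1 over the background plus 1, which gave the background. The lowest background of each library, 4.33, 1.68, 2.14 and 1.30 fragments, was within rounding of the expected genome-wide mean of 4.31, 1.68, 2.13 and 1.29. The 4 libraries were permuted exactly to compare the groups. All 7 members were named, and from other lists the genes with a TSS peak in all 4 libraries or in both libraries of 1 group alone. Ctnnb1, Cdh2, Ptprm, Ptprj, Ptpn1 and Tln1 fall outside this rule and were chosen after their values were seen. A test of pileups and the search for genes of like pattern needed a member with a TSS peak in all 4 libraries and were not run. The members and lists were chosen with earlier results of these data known. The TSS search was tested on simulated data, where it found 200 of 200 planted peaks inside the window and 0 of 200 outside, over 400 genes. The settings varied were the q limit, the fold enrichment (at least 4), the length of the lists, other windows, starts and flanks, summits in place of overlap, summits away from the TSS, same-numbered pairs, and leaving out each replicate. Curated RefSeq starts, leaving out Cdh5 and other limits of the run were added after the data were seen.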

Additional observations from a re-analysis of the deposited data

How the results depend on the processing

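With 2 against 2 no exact permutation test could pass at any setting. The difference in members with a TSS peak (young minus old) changed sign to 1.5 at q of at most 1e-05, to 0.5 at a fold enrichment of at least 4 and to 1 with a TSS window of 500 bp, and ranged from -3.5 to 2.5 when each replicate was left out. The number with a TSS peak in both old WT Cre libraries fell from 3 to 0 at the stricter q, at the fold minimum and with lists of equal length, to 1 with the 500 bp window, and to 2 with summits inside the window. Left to 1 library, it was 3 or 4. The number in both young EC-K4KO libraries was 1 with a window of 3000 bp, and 0 or 6 with 1 library. The gene body difference changed sign to -0.0835 at the stricter q, was 0.0828 at the fold minimum, and ranged from 0.148 to 0.513 with a replicate left out. It was 0.498 for summits more than 1500 bp from a TSS. For the members this left out windows around their own TSSs only, and for all gene bodies windows around every protein-coding TSS. The flank difference changed sign to 0.107 with lists of equal length, was -0.321 at the fold minimum (p = 0.33 in the exact permutation test, the smallest possible) and -0.169 with 20 kb flanks, and ranged from -0.234 to 0.197 with a replicate left out. With a replicate block (sign-flip exact permutation of same-numbered libraries, where no p can be below 0.5), the differences of -0.5 members, 0.331 and -0.0187 kept their values, with p = 1.0, 0.5 and 1.0. The numbers pair no samples in the labels. The run at Cdh5 was 164.9 kb at 3 times the background and 111.2 kb with gaps of up to 10 kb. The causes were not tested. TSS pileups rested on 10 to 78 fragments per peak. Young 2 had the fewest fragments and the most peaks, and the part of sequencing depth in the calls was not tested.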
